A study of Rattus norvegicus with 399 samples.

Results

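The genes C3, C4a, C1s, Cfi and C7 belong to the complement system, a cascade of plasma proteins that marks and lyses microbes and clears damaged cells. They were taken by symbol from a targeted rat panel, on which each is read by 1 probe, so they make up 5 of 2654 probes. The deposited table numbers these probes 8175 for C3, 8176 for C4a, 8172 for C1s, 32585 for Cfi and 8179 for C7. They sit at successive steps of the cascade. C1s is the serine protease of the first complex and cleaves component C4, of which C4a encodes a form. C3 is the central component on which the initiating pathways converge. Cfi is the protease that inactivates the active fragments of C3 and C4, and C7 is a part of the membrane attack complex at the end of the cascade. Hepatocytes secrete most circulating complement proteins, and macrophages, fibroblasts and endothelial cells make some of them locally.

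Female Sprague-Dawley rats, 9 weeks old, were exposed to 1,2-dichlorobenzene (1,2-DCB) at 1, 10, 30, 100, 250 or 500 ppm or to 1,4-dichlorobenzene (1,4-DCB) at 1, 10, 50, 150, 400 or 800 ppm, with separate controls at 0 ppm for either compound. The compounds are isomers that differ in the position of the second chlorine on the benzene ring. Heart, kidney, left lobe of the liver, lung and ovary were collected on study day 5 and measured by TempO-Seq, a probe ligation assay read by sequencing. Of 399 libraries, 390 from 80 rats with no quality flag were used: 10 controls and 5 rats per concentration in most tissues. Flagged libraries left 9 controls for the kidney with 1,2-DCB and 8 for the lung with 1,4-DCB. In lung they left 4 rats at 500 ppm 1,2-DCB, 4 at each of 1, 10 and 150 ppm 1,4-DCB, and 3 at 400 ppm 1,4-DCB. Kidney at 1 ppm 1,4-DCB had 4 rats because the series holds no kidney library of a further rat.

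Libraries held 1202354 to 69774071 counts (median 22555404), with medians from 12827732 in heart to 41945612 in liver. These counts are adjusted for the dampening of abundant probes, so they are not read depth. C3, C4a, C1s and C7 had counts in all 390 libraries, and Cfi was at 0 in 27 of them: 6 control and 17 exposed heart libraries and 4 exposed ovary libraries. The labelled tissues were checked against marker lists in the controls. The summed level of 4 cardiomyocyte markers was 257218 to 408420.0 CPM (counts scaled to a common library size) in the 1,2-DCB heart controls and at most 65.7 CPM in any control library of another tissue. The sum of 10 hepatocyte markers was 555688 to 803868 CPM in the 1,2-DCB liver controls and at most 11264 CPM elsewhere. The 2 kidney tubule markers on the panel and the 8 ovarian markers were likewise highest in their own tissue, and the panel holds none of the 8 listed lung epithelial markers.

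In control rats the members had separate tissue patterns. Liver held by far the highest C3 and Cfi, and C7 was lowest there. By library total, the median C3 level was 13962 CPM in liver, 561 in lung, 88.7 in kidney, 52.9 in ovary and 14.8 in heart (18 to 20 rats per tissue). Cfi, the inactivating protease, followed the same order, with 789 CPM in liver, 15.5 in lung, 14.3 in kidney, 1.83 in ovary and 0.147 in heart. For C7 heart and liver changed places, at 5557 CPM in heart, 5388 in lung, 2985 in kidney and 1336 in ovary against 23.1 in liver. The lowest heart control, at 4077 CPM, stood above the highest liver control, at 35.97 CPM. C4a was at 67.2 (32.6 to 90.8) CPM in lung, 35.5 (24.6 to 54.2) in ovary, 26.02 (21.7 to 35.2) in liver, 16.8 (10.5 to 27.8) in kidney and 9.69 (1.89 to 30.95) in heart, as median and range. C1s varied least between tissues, from 22.4 (14.96 to 50.6) CPM in kidney through 26.1 (18.7 to 36.96) in lung, 29.9 (21.4 to 37.4) in liver and 42.6 (34.8 to 74.8) in heart to 70.4 (44.7 to 114.3) in ovary.

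The order of the tissues depended on scaling, the top rank of C4a and C1s included. With TMM scaling, liver was highest for both: C4a was higher in liver than in lung by 2.22 log2 and than in ovary by 3.38 log2, and C1s was higher in liver than in heart by 2.30 log2 and than in ovary by 2.62 log2. Of the 50 member and tissue-pair comparisons, 46 passed an adjusted p below 0.05 with TMM scaling, against 83% of all probe comparisons between control tissues, and 38 passed in the same direction when libraries were scaled by their totals. TMM factors differed between tissues, with median log2 factors from -2.62 in liver to 1.22 in ovary. With TMM, 6 calls pointed the other way: C1s and C4a were then higher in liver than in ovary, C4a was higher in liver than in lung, C1s was higher in liver than in heart, and C1s was higher in heart than in ovary and in kidney than in lung. Cfi in kidney and lung did not differ beyond the spread with either scaling (adjusted p = 0.233 with TMM and 0.455 with totals). By totals, C7 in heart and lung did not differ beyond the spread either (adjusted p = 0.702), nor did C1s in liver and lung (adjusted p = 0.136).

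**Figure D1:**
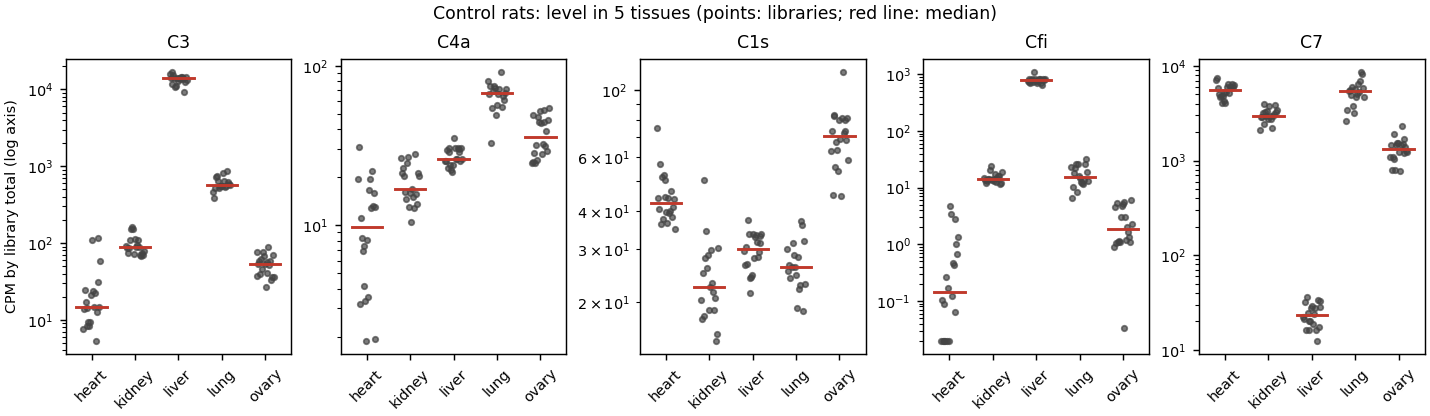
Level of each member in every control library, in CPM by library total on a log axis, by tissue (18 to 20 rats each), with libraries at 0 drawn at 0.02 CPM. C3 and Cfi are highest in liver (medians 13962 and 789 CPM) and C7 is lowest there (median 23.1 CPM).

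The promoters are shown because C3, C4a and Cfi changed together in the liver of exposed rats, and a RefSeq promoter was matched for these 3 members. Each sequence is the 250 bases before the annotated start on the gene's own strand, 5′ to 3′, from RefSeq on GRCr8, and capitals mark a match to the C/EBP motif TTGCNNAA searched on both strands. The C3 window is chr9:2201340-2201589 on the minus strand, the C4a window chr20:4010107-4010356 on the plus strand and the Cfi window chr2:221063066-221063315 on the plus strand.
C3: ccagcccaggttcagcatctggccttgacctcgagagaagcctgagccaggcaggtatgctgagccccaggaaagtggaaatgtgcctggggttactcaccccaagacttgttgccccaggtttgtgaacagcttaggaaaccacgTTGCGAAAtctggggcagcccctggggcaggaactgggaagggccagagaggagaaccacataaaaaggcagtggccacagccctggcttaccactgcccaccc
C4a: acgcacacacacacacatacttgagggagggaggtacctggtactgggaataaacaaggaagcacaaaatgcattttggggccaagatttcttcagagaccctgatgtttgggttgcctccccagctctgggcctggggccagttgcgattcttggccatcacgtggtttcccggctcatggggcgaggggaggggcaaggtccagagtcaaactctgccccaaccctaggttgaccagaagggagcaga
Cfi: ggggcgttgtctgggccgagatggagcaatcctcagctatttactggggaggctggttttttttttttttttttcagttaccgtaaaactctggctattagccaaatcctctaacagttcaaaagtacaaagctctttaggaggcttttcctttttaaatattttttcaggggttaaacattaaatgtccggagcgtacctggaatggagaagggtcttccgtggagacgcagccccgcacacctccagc
The C3 window held 1 C/EBP match, and the C4a and Cfi windows held 0. That motif occurs in 9.22% of 33469 rat promoters of the same length. None of the 3 windows held the STAT motif TTCNNNGAA, which occurs in 7.67% of them. A match is a description of the letters and not a binding site. The C4a and C4b windows share an identical run of 75 bases. C4a and C4b are near-identical copies, so their probe counts may be shared, and in liver the C4b probe was close to 0 (control median 0.0802 CPM by library total).

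In liver, all 5 members fell at 500 ppm 1,2-DCB, and the initiating genes C4a and C1s fell most. C1s, the initiating protease, lay at 23.4 to 37.7 CPM (median 29.8) in the 10 controls and at 7.20, 4.15, 5.98, 5.09 and 5.29 CPM in the 5 rats at 500 ppm, a 5.39-fold lower level (-2.43 ± 0.14 on the log2 scale, adjusted p = 2.78e-18). C4a lay at 22.1 to 32.5 CPM (median 27.1) in the 10 controls and at 4.49, 2.58, 3.86, 5.12 and 5.93 CPM in the exposed rats, 6.22-fold lower (-2.64 ± 0.16, adjusted p = 4.38e-17). For both genes every exposed rat stood below every control, with no overlap. The central component C3 lay at 12278 to 18251 CPM (median 14083) in the 10 controls and at 5211, 5392, 4764, 6423 and 5295 CPM, 2.69-fold lower (-1.43 ± 0.088, adjusted p = 3.45e-17). The inactivator Cfi lay at 738 to 1177 CPM (median 817) in the 10 controls and at 388, 380.1, 393, 413 and 455 CPM, 2.11-fold lower (-1.08 ± 0.088, adjusted p = 1.15e-13). The terminal component C7 lay at 17.9 to 36.3 CPM (median 22.7) in the 10 controls and at 9.68, 10.5, 13.2, 4.63 and 8.06 CPM, 2.74-fold lower (-1.45 ± 0.23, adjusted p = 1.11e-06). In these 3 genes, too, all 5 exposed rats were below all 10 controls. How many of all probes showed no overlap was not counted, here or in the other comparisons. Of all probes tested, 32.7% fell and 35% rose at this concentration, beside the 5 of 5 members that fell. Scaling by library totals moved the median of all probes from 0.03 to 0.44 log2, and all 5 members still fell, by 2.23 (C4a), 2.04 (C1s), 1.06 (C7), 1.03 (C3) and 0.67 (Cfi) on the log2 scale.

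Lower concentrations of 1,2-DCB showed smaller changes in liver, and C7 parted from the others. At 250 ppm, C4a fell to 15.8 ± 3.28 CPM (SD, n = 5) from 27.3 ± 3.27 CPM (SD, n = 10), and all 5 rats were below every control (-0.79 ± 0.15, adjusted p = 6.03e-05). Cfi fell in 5 of 5 rats to 609.6 ± 64.96 CPM (SD, n = 5) (-0.49 ± 0.086, adjusted p = 2.57e-05). C3 fell to 11089 ± 945 CPM (SD, n = 5) (-0.40 ± 0.084, adjusted p = 0.000372), with 4 of 5 rats below the controls. C1s fell to 21.6 ± 4.22 CPM (SD, n = 5) (-0.46 ± 0.12, adjusted p = 0.00382), with 3 of 5 rats below the controls. C7, at 22.9 ± 2.96 CPM (SD, n = 5) against 25.2 ± 6.37 CPM (SD, n = 10), did not pass the test (-0.14 ± 0.22, adjusted p = 0.702), and no rat was below the controls. These 4 of 5 members compare with 11.2% of all probes that fell at 250 ppm. With library totals the median of all probes moved from -0.02 to 0.31 log2 and C4a alone still passed (-0.46 log2, adjusted p = 0.0157). C3 was then at -0.069 log2 (adjusted p = 0.6), C1s at -0.14 (0.381) and Cfi at -0.17 (0.147).

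At 100 ppm, C3 was the single member that passed: 14014, 10708, 11528, 11068 and 11461 CPM against 12278 to 18251 CPM (median 14083) in the 10 controls (-0.31 ± 0.083, adjusted p = 0.0363), where 0.644% of all probes fell. The first of these rats, F401, lay within the control range and the other 4 lay below it. The call ended when any of the controls F1, F2, F3, F5 or F9 or any of the exposed rats F402 to F405 was left out (adjusted p from 0.0502 to 0.136). At 1, 10 and 30 ppm no member passed in liver. C1s had means of 33.7, 35.4 and 36.8 CPM there against 29.8 in the controls, with adjusted p from 0.571 to 1.

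**Figure D2:**
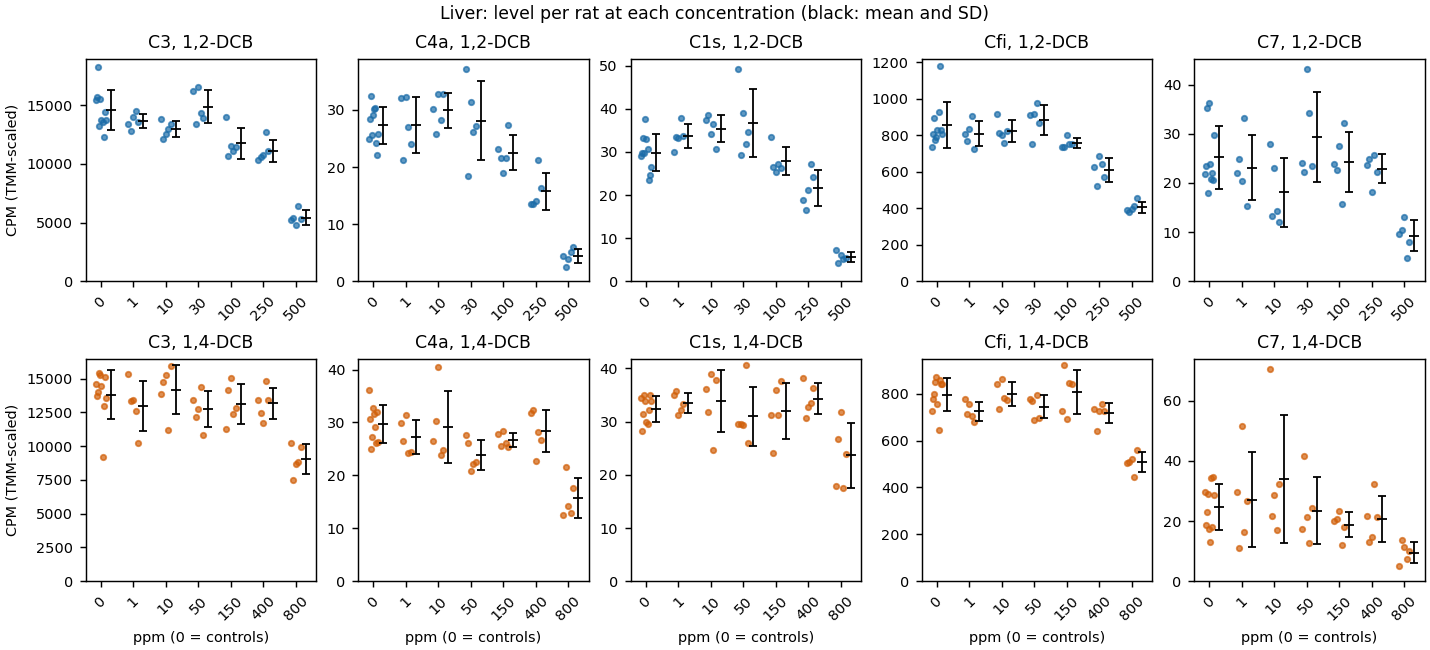
Level of each member in liver, in TMM-scaled CPM on linear axes from 0, by concentration of 1,2-DCB and 1,4-DCB (ppm); each point is 1 rat (10 controls and 5 rats per concentration) and black bars mark mean and SD. All 5 members are lower at 500 ppm 1,2-DCB than in any control, while at 800 ppm 1,4-DCB the groups come closer.

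With 1,4-DCB all 5 members also fell in liver, at its top concentration of 800 ppm. C4a lay at 24.99 to 36.1 CPM (median 29.9) in the 10 controls and at 12.5, 21.5, 14.2, 12.9 and 17.6 CPM in the exposed rats, 1.89-fold lower (-0.92 ± 0.12 on the log2 scale, adjusted p = 7.43e-08). Cfi lay at 644 to 873 CPM (median 819.8) in the 10 controls and at 502.1, 508, 522, 445 and 561 CPM, 1.57-fold lower (-0.65 ± 0.071, adjusted p = 1.66e-09). In both genes the 5 exposed rats were below all 10 controls. C7 lay at 13.2 to 34.6 CPM (median 25.9) in the 10 controls and at 4.96, 13.7, 11.5, 7.42 and 10.02 CPM, 2.60-fold lower (-1.38 ± 0.35, adjusted p = 0.00217), with 1 rat inside the control range. C3 lay at 9193 to 15395 CPM (median 14195) in the 10 controls and at 10259.8, 7500.2, 8701, 8853 and 9942 CPM, 1.53-fold lower (-0.61 ± 0.10, adjusted p = 8.65e-06). The control rat F7 set the low end of that range at 9193 CPM, and 3 of 5 exposed rats were below it. C1s lay at 28.2 to 35.1 CPM (median 33.02) in the 10 controls and at 17.9, 26.8, 31.9, 17.6 and 23.999 CPM, 1.37-fold lower (-0.45 ± 0.11, adjusted p = 0.00186), and 4 of 5 rats were below the controls. Of all probes, 15.4% fell and 19.5% rose at 800 ppm. C1s no longer passed when libraries were scaled by totals (-0.34 log2, adjusted p = 0.0702). Below 800 ppm, none of the 25 member tests in 1,4-DCB liver passed with edgeR, limma voom or DESeq2, and 2 had an unadjusted p below 0.05. Of all probes, 1.68% fell and 4.75% rose there at 400 ppm, and 0% changed at 1, 10, 50 and 150 ppm.

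The top concentrations of the compounds differ, so their liver values are set side by side with no test. C1s was 5.39-fold lower at 500 ppm 1,2-DCB and 1.37-fold lower at 800 ppm 1,4-DCB, and C4a was 6.22-fold and 1.89-fold lower. For C7 the values were 2.74-fold and 2.60-fold.

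**Figure D3:**
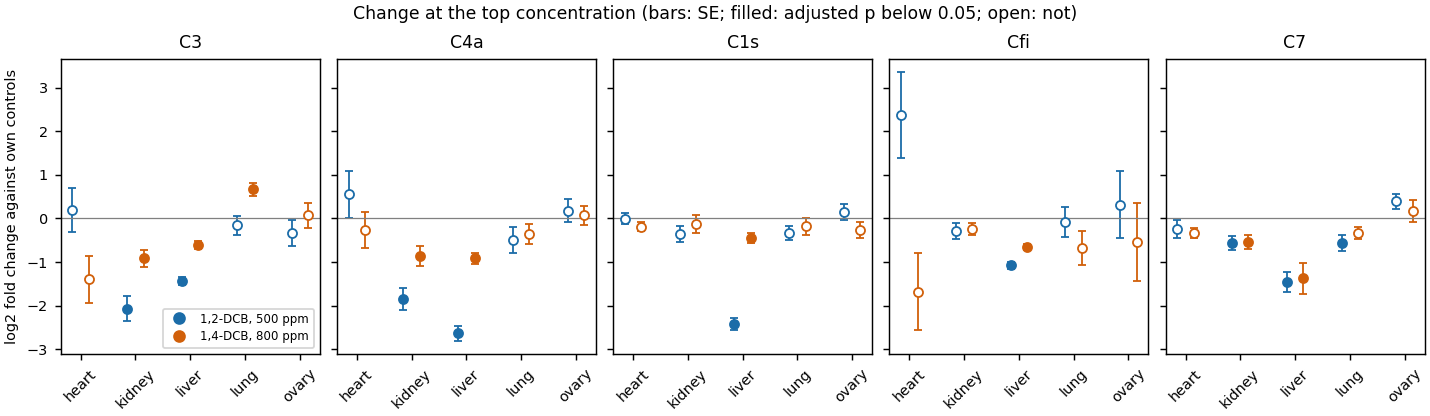
Log2 change of each member at the top concentration against the compound's own controls, with its standard error, for the 5 tissues at 500 ppm 1,2-DCB and 800 ppm 1,4-DCB; filled points passed an adjusted p below 0.05. In liver all 5 members lie below 0 for both compounds, and in lung C3 lies above 0 at 800 ppm 1,4-DCB.

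Most other complement genes on the panel fell in liver at 500 ppm 1,2-DCB, and 11 of 22 fell at 800 ppm 1,4-DCB. A list of 44 further complement symbols had 25 on the panel, read by 26 probes, of which 22 were tested in liver. At 500 ppm 1,2-DCB, 20 of 22 fell and 0 rose, while 32.7% of all probes fell and 35% rose. The list's median was -1.25 log2 against 0.03 over all probes tested. Counts of this list used TMM scaling and were not repeated with library totals, for either compound. C8g, a chain of component C8 of the membrane attack complex, fell from 161 ± 26.5 to 56.6 ± 6.92 CPM (SD; -1.51 ± 0.10, adjusted p = 6.85e-17). C4bpb and C4bpa encode the chains of the C4b-binding protein that limits the classical pathway. C4bpb fell to 30.5 ± 2.53 CPM (SD; -1.80 ± 0.11, adjusted p = 8.67e-17), and C4bpa fell from 214 ± 30.05 to 76.3 ± 9.27 CPM (SD; -1.49 ± 0.10, adjusted p = 7.38e-16). Serping1, the inhibitor of C1s and C1r, fell from 58.5 ± 5.48 to 24.8 ± 1.47 CPM (SD; -1.24 ± 0.089, adjusted p = 2.89e-15). By role and with the members counted, 11 of 11 initiation probes, 5 of 5 terminal probes and 6 of 8 regulators fell. The regulators that did not pass were Clu at -0.18 ± 0.13 log2 and Cd55 at 0.41 ± 0.35 log2.

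At 800 ppm 1,4-DCB, 11 of the 22 further complement probes fell, 0 rose and 11 did not pass, while 15.4% of all probes fell and 19.5% rose. The list's median was -0.30 log2 against -0.0011 over all probes. Fcn1, a ficolin that starts the lectin pathway, fell from 14.3 ± 1.42 to 7.26 ± 1.62 CPM (SD; -0.98 ± 0.12, adjusted p = 2.31e-08). Serping1 fell from 56.6 ± 2.88 to 42.7 ± 4.08 CPM (SD; -0.41 ± 0.071, adjusted p = 1.4e-05), and C1qc, a chain of C1q, fell from 29.2 ± 3.33 to 19.4 ± 2.67 CPM (SD; -0.59 ± 0.11, adjusted p = 3.48e-05). The lectin genes Mbl1 and Mbl2, which fell with 1,2-DCB, did not pass here (0.03 ± 0.067 log2 for Mbl1 and -0.11 ± 0.11 for both Mbl2 probes).

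Other liver lists moved beside complement, and the shares of all probes to set beside them are 32.7% fallen and 35% risen at 500 ppm 1,2-DCB, and 15.4% fallen and 19.5% risen at 800 ppm 1,4-DCB. Of 19 further secreted acute phase and plasma protein genes, 17 fell and 1 rose at 500 ppm 1,2-DCB, and 12 fell and 1 rose at 800 ppm 1,4-DCB. Of the 10 hepatocyte markers, 6 of them also on that list, 9 fell and 1 rose with 1,2-DCB, and 4 fell and 2 rose with 1,4-DCB. The summed hepatocyte level was 555688 to 803868 CPM in the 1,2-DCB controls and 504796 to 640767 CPM at 500 ppm, with overlap. All 8 macrophage markers, of which C1qa, C1qb and C1qc are also complement genes, fell with 1,2-DCB, and their sum was 88.3 to 130.3 CPM in the controls and 46.4 to 63.2 CPM at 500 ppm, with none of them at 0. With 1,4-DCB, 4 of 8 fell and the sum was 96.2 to 116.2 CPM in the controls and 74.5 to 97.9 CPM at 800 ppm. The sums of endothelial, fibroblast and T cell markers were also lower, with no overlap. Sums and list counts, here and in the other tissues, used TMM scaling and were not repeated with library totals. In liver at 500 ppm 1,2-DCB, library totals moved the median of all probes from 0.03 to 0.44 log2. At 500 ppm 1,2-DCB the 4 endothelial markers summed to 17.9 to 23.6 CPM against 27.4 to 35.4 CPM in the controls, and 2 of 4 fell. The 8 fibroblast markers summed to 38.1 to 86.9 CPM against 88.8 to 162 CPM, and 3 of the 4 tested fell. The 5 T cell markers summed to 2.05 to 3.23 CPM against 3.50 to 5.47 CPM, and 2 of the 3 tested fell. At 800 ppm 1,4-DCB the sums were 18.3 to 23.7 against 27.4 to 37.1 CPM for endothelial, 71.7 to 95.9 against 98.8 to 159.9 CPM for fibroblast and 2.70 to 3.10 against 3.48 to 5.76 CPM for T cell markers, and 1 marker of each list fell. The 4 neutrophil markers summed to 2.18 to 3.92 CPM at 500 ppm 1,2-DCB against 3.92 to 11.2 CPM in the controls, and 2 of the 3 tested fell. At 800 ppm 1,4-DCB their sum was not lower, at 6.64 to 13.9 against 4.54 to 10.1 CPM, and 0 fell or rose. In these bulk samples fewer cells of a type and less RNA per cell cannot be told apart, and the part of these lists in the complement changes was not tested. Of 14 interferon-induced probes, 12 fell at 500 ppm 1,2-DCB and 0 changed at 800 ppm 1,4-DCB.

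Across the 80 liver libraries, each taken relative to the mean of its compound's own controls, C3, C4a, C1s and Cfi varied together. Pearson's r ranged from 0.817 (C1s and Cfi) to 0.931 (C4a and C1s) among these 4 and from 0.564 to 0.604 between C7 and the others. Without the 10 libraries of the top concentrations, r was between 0.424 and 0.664 among the 4 and between 0.0974 and 0.220 with C7. These libraries share exposure groups and scaling, so r is a description across 80 or 70 libraries.

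The genes most like each member were found in the tissue with its highest mean control level by library total, although with TMM liver was highest for C4a and C1s. Among 477 liver probes, C3 was nearest to C4a (r = 0.889, n = 80), then to Itih3 (0.887) and Itih1 (0.883), which encode heavy chains of inter-alpha-trypsin inhibitor. Without the top concentrations these were 0.581, 0.617 and 0.476 (n = 70), with Itih3 above C4a. Cfi was nearest to Itih1 (0.915), Plg, the plasminogen gene (0.892), and Met, the hepatocyte growth factor receptor gene (0.876), and without the top concentrations at 0.745, 0.697 and 0.752, with Met the highest of the 3. Among 1185 lung probes, C4a was nearest to the mast cell protease gene Cpa3 (0.573, n = 72), Fcer1a (0.527), a chain of the mast cell IgE receptor, and Prkcd (0.520), at 0.528, 0.481 and 0.393 without the top concentrations. Among 1271 ovary probes, C1s was nearest to Csf1r (0.642), a macrophage receptor, Pmp22 (0.636) and Rsu1 (0.603), at 0.708, 0.682 and 0.602 without them. Among 936 heart probes, C7 was nearest to Mfap2 (0.781), a microfibril protein gene, LOC100910792 (0.773) and Mgp, the matrix Gla protein gene (0.751). Without the top concentrations these were 0.775, 0.769 and 0.838, with Mgp the highest of the 3. Both sets of heart values include the 1 ppm 1,2-DCB rats F101 and F102, with C7 at 15923 and 21662 CPM. No r was taken without these rats.

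In kidney, C3, C4a and C7 fell at the top concentration of each compound. C3 lay at 73.98 to 153.6 CPM (median 96.4) in the 9 controls and at 28.5, 10.2, 45.4, 31.7 and 13.2 CPM at 500 ppm 1,2-DCB, 4.19-fold lower (-2.07 ± 0.29, adjusted p = 2.06e-06). C4a lay at 13.3 to 27.5 CPM (median 21.6) in the 9 controls and at 8.94, 4.57, 5.13, 4.28 and 5.84 CPM, 3.58-fold lower (-1.84 ± 0.25 on the log2 scale, adjusted p = 1.04e-06). In both genes every exposed rat was below every control. C7 lay at 2197 to 3855 CPM (median 3058) in the 9 controls and at 1599, 2497, 2238, 1952 and 1833 CPM, 1.48-fold lower (-0.56 ± 0.17, adjusted p = 0.0162). For C7, 3 of 5 rats were below the controls, and the call ended without the exposed rat F601 (-0.49 log2, adjusted p = 0.0544). C1s (-0.35 ± 0.19, adjusted p = 0.218) and Cfi (-0.29 ± 0.19, adjusted p = 0.333) did not pass. The 3 of 5 members that fell compare with 7.7% of all probes.

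At 800 ppm 1,4-DCB, C3 lay at 33.8, 41.9, 55.3, 27.9 and 63.02 CPM against 68.8 to 107.6 CPM (median 87.2) in the 10 controls, 1.89-fold lower (-0.92 ± 0.19, adjusted p = 0.00151). C4a lay at 7.79, 10.2, 8.95, 8.64 and 10.8 CPM against 10.99 to 27.6 CPM (median 15.8) in the 10 controls, 1.82-fold lower (-0.86 ± 0.24, adjusted p = 0.0252). Again no exposed rat overlapped the controls in either gene. C7 lay at 2135, 1745, 2201, 2006 and 2602 CPM against 2157 to 4755 CPM (median 2993) in the 10 controls, 1.46-fold lower (-0.55 ± 0.16, adjusted p = 0.0326), with 3 of 5 rats below the controls. Of all probes, 2.67% fell. The C4a call ended without control F6 or without exposed rat F601, F603 or F604 (adjusted p from 0.0505 to 0.0873), and with limma voom (0.0594). The C7 call ended without control F2, F8 or F9 or without exposed rat F601, F602, F603 or F604 (adjusted p from 0.0507 to 0.115), and with the exposed group and its controls alone (0.0618).

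Of 23 further complement probes tested in kidney, 3 fell at 500 ppm 1,2-DCB, where 7.7% of all probes fell and 8.72% rose. C1qc fell from 30.4 ± 5.70 to 16.5 ± 3.82 CPM (SD; -0.88 ± 0.16, adjusted p = 6.7e-05), Cd55, a regulator on the cell surface, from 35.4 ± 3.77 to 26.6 ± 2.28 CPM (SD; -0.41 ± 0.093, adjusted p = 0.0017), and C2, the partner of C4 in the classical convertase, from 1.82 ± 0.982 to 0.728 ± 0.397 CPM (SD; -1.33 ± 0.39, adjusted p = 0.0147). At 800 ppm 1,4-DCB, 0 of 22 changed with edgeR's quasi-likelihood test, where 2.67% of all probes fell and 2.37% rose. Of 8 fibroblast markers, 3 fell at 500 ppm 1,2-DCB, and their sum was 703 to 1165 CPM in the controls and 317 to 526 CPM at 500 ppm. Of 8 macrophage markers, 4 fell, and their sum was 839 to 1171 CPM in the controls and 489 to 858 CPM at 500 ppm. The 4 endothelial markers summed to 284 to 491 CPM in the controls and 203.03 to 247 CPM at 500 ppm, and the 5 T cell markers to 13.4 to 18.8 CPM and 7.63 to 9.85 CPM, neither with overlap. In each of these lists 1 marker fell. At 800 ppm 1,4-DCB, 2 of 5 T cell, 1 of 8 fibroblast, 1 of 4 endothelial and 0 of 8 macrophage markers fell, and all 4 sums overlapped those of the controls. Their part in the kidney results was not tested.

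**Figure D4:**
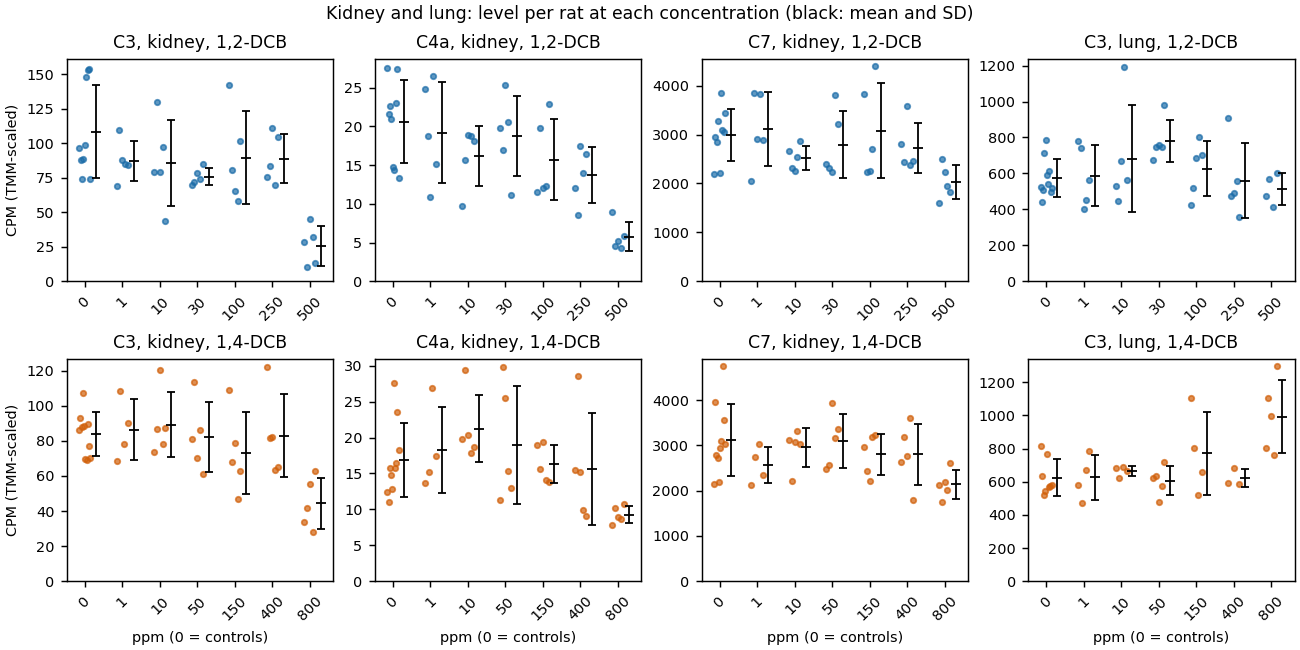
TMM-scaled CPM on linear axes from 0 by concentration (ppm) for C3, C4a and C7 in kidney and C3 in lung; each point is 1 rat and black bars mark mean and SD. In kidney the 5 rats at each top concentration lie below the controls for C3 and C4a, and in lung the C3 mean rises from 625 CPM in controls to 993 CPM at 800 ppm 1,4-DCB.

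In lung, C3 rose at 800 ppm 1,4-DCB, in the direction opposite to liver and kidney. It lay at 518 to 816 CPM (median 574) in the 8 controls and at 804, 1106, 996, 760.0 and 1298 CPM in the exposed rats (0.67 ± 0.15 on the log2 scale, adjusted p = 0.0051), and 3 of 5 rats were above every control. The other 4 members did not pass there, while 2.87% of all probes rose. Counting the libraries with a quality flag as well, the C3 change was 0.63 ± 0.18 log2 (adjusted p = 0.0657). Fcnb, a ficolin of neutrophils, rose in the same rats from 8.11 ± 2.76 to 20.2 ± 6.81 CPM (SD; 1.32 ± 0.30, adjusted p = 0.00731), and C1qc rose from 48.6 ± 13.5 to 72.5 ± 9.41 CPM (SD; 0.58 ± 0.15, adjusted p = 0.0158). These were the 2 of 21 further complement probes that changed. Of 4 neutrophil markers on the panel, Fcnb among them, 2 rose, and their sum was 520.0 to 869 CPM in the controls and 840.0 to 1752 CPM at 800 ppm. Their part in the C3 result was not tested.

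At 500 ppm 1,2-DCB the lung showed a lower C7, at 2693, 3254, 3155 and 3280.0 CPM in 4 rats against 2985 to 5595 CPM (median 4827) in the 10 controls (-0.56 ± 0.18, adjusted p = 0.043). Of these rats 1 was below the controls, and 4.68% of all probes fell. The call ended without control F3, F4, F5, F6 or F9, or without any 1 of the 4 exposed rats (adjusted p from 0.0653 to 0.155), and with library totals (adjusted p = 0.169). C3 was at 513 ± 86.9 CPM (SD, n = 4) against 573 ± 105.3 CPM (SD, n = 10) and did not pass (-0.16 ± 0.22, adjusted p = 0.756). None of 21 further complement probes changed with edgeR. Of 8 fibroblast markers 5 fell, with sums of 2246 to 4089 CPM in the controls and 1343 to 1810.5 CPM at 500 ppm, and their part in the C7 result was not tested.

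In heart, no member passed at either top concentration. At 500 ppm 1,2-DCB, 1 of 5 had an unadjusted p below 0.05 and neither DESeq2 nor limma voom called any, while 12% of all probes changed. At 800 ppm 1,4-DCB, 2 of 5 had an unadjusted p below 0.05 and 6.86% of all probes changed. There C7 lay at 4542, 4743, 4596, 4400.1 and 4420.4 CPM against 4429.7 to 6807 CPM (median 5812) in the 10 controls (-0.34 ± 0.12, adjusted p = 0.0624). DESeq2 called C7 (-0.35 log2, adjusted p = 0.0327) and C3 (-1.43 log2, adjusted p = 0.0465), and edgeR called C7 when control F1 was left out (-0.38 log2, adjusted p = 0.0387). The C3 controls spread from 5.57 to 117.4 CPM, and the exposed rats lay at 19.5, 11.4, 11.2, 18.4 and 15.99 CPM, inside that range. Against the same controls the C3 change did not grow with concentration above 10 ppm. It was -0.84 log2 at 1 ppm, -1.83 at 10, -1.82 at 50, -1.41 at 150, -1.82 at 400 and -1.40 at 800 ppm, with no edgeR call. The controls with the highest C3 were F1, F7 and F10, at 117.4, 109.6 and 60.3 CPM. These 3 libraries also held the most albumin (Alb), at 912, 761 and 267 CPM, and the exposed rats held 2.80 to 12.3 CPM. Of 9 hepatocyte markers tested at 800 ppm, 5 fell and 0 rose, where 3.8% of all probes fell. The part of liver transcripts in the C3 values was not tested.

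At 1 ppm 1,2-DCB, C7 and Cfi rose in heart, where 4.25% of all probes rose. C7 lay at 15923, 21662, 5582, 5476 and 6542 CPM against 4611 to 6911 CPM (median 4982) in the 10 controls (1.04 ± 0.20 on the log2 scale, adjusted p = 0.00191). The rats F101 and F102 were far above every control, and the other 3 lay inside the control range. Those libraries had cardiomyocyte sums of 168369 and 57163 CPM, below the control range of 257218 to 408420.0 CPM, and fibroblast sums of 6816 and 3811 CPM, above the control range of 2170.4 to 3499 CPM. Without both of them, the C7 change was 0.13 ± 0.13 log2 (adjusted p = 0.998). Cfi rested on few counts: 0 to 4 reads per library in the 10 controls and 0 to 34 in the 5 exposed rats (3.10 ± 0.91, adjusted p = 0.0347). F101 and F102 held the most, 34 and 18 reads. Their hepatocyte marker sums were 2942 and 3058 CPM, above the control range of 1677 to 1920 CPM, and the part of liver transcripts was not tested. Without both rats the Cfi change was 2.09 ± 1.16 log2 (adjusted p = 0.998). Its call ended without F101 (adjusted p = 0.28), without F102 (0.164) and without control F1, F3, F4, F6, F8 or F10 (0.0507 to 0.0638), and the C7 call ended without F101 (0.0801) or F102 (0.0684).

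**Figure D5:**
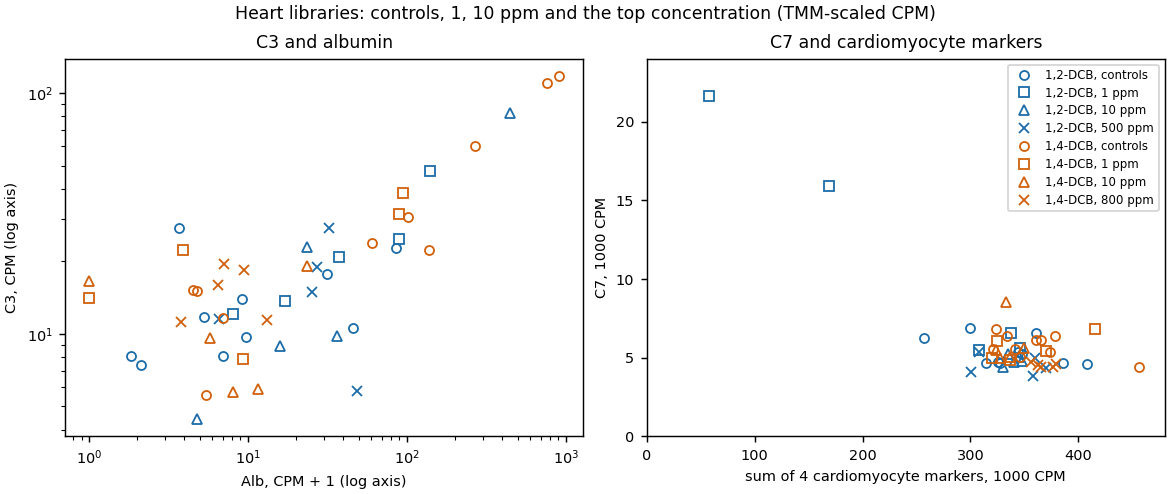
Heart libraries of both compounds at 0, 1 and 10 ppm and the top concentration, in TMM-scaled CPM: C3 against albumin (left; CPM plus 1 for albumin, log axes) and C7 against the summed cardiomyocyte markers (right, linear axes, in units of 1000 CPM), each point 1 rat. The 1,4-DCB controls F1, F7 and F10 lie at the upper right of the first panel, and the 1,2-DCB rats F101 and F102 have C7 at 15923 and 21662 CPM with the lowest cardiomyocyte sums.

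In ovary, no member passed at 500 ppm 1,2-DCB or at 800 ppm 1,4-DCB with edgeR, DESeq2 or limma voom, and 1 of 5 and 0 of 5 had an unadjusted p below 0.05. C7 lay at 1512, 1388, 1705, 1957 and 1595 CPM at 500 ppm 1,2-DCB against 814 to 1872 CPM (median 1249) in the 10 controls (0.39 ± 0.17 on the log2 scale, adjusted p = 0.208). C1s, which is highest in ovary by library total, lay at 72.99 ± 9.04 CPM (SD, n = 5) against 65.8 ± 12.2 CPM (SD, n = 10) with 1,2-DCB and at 61.3 ± 8.77 CPM (SD, n = 5) against 73.4 ± 15.04 CPM (SD, n = 10) with 1,4-DCB. Of all probes, 2.91% changed with 1,2-DCB and 8.47% with 1,4-DCB. Serping1 rose at 500 ppm 1,2-DCB from 30.8 ± 3.94 to 45.8 ± 3.15 CPM (SD; 0.57 ± 0.14, adjusted p = 0.0194), the single further complement probe of 18 tested that changed, and 0 of 19 changed with 1,4-DCB.

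In the 47 comparisons below the top concentration other than 1,2-DCB liver at 100 and 250 ppm and heart at 1 ppm, 0 of 235 member tests passed with edgeR and 0 with limma voom. DESeq2 called 2, and 24 had an unadjusted p below 0.05. Of all probes in these comparisons, 0.142% changed.

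The changes at the top concentration were then compared between liver and each other tissue. With 1,2-DCB, 16 of 20 differences passed, all with a lower change in liver, against 20.1% of all probes lower in liver. With library totals 5 of these calls ended: C7 against kidney (-0.40 log2, adjusted p = 0.318) and lung (-0.49, 0.23), C3 against lung (-0.86, 0.126) and ovary (-0.76, 0.166), and Cfi against ovary (-1.02, 0.15). C1s separated liver from every other tissue: its liver change was lower by 2.61 log2 than in heart, 2.22 than in kidney, 2.28 than in lung and 2.73 than in ovary (adjusted p from 1.84e-21 to 1.78e-15). For C3 the liver and kidney changes did not differ beyond the error (0.50 ± 0.44 log2, adjusted p = 0.397). The C4a difference from kidney (-0.95 ± 0.46, adjusted p = 0.0905) and the Cfi differences from kidney and lung did not pass either. With 1,4-DCB, 6 of 20 passed, against 8.26% of all probes lower in liver: C7 against all 4 other tissues (-0.96 in kidney to -1.69 in ovary), C3 against lung and C4a against ovary. With library totals 1 of these 6 remained called, C7 against ovary.

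At the concentrations the compounds share, 1 and 10 ppm, the change with 1,4-DCB minus the change with 1,2-DCB was tested for each member in each tissue, 50 tests in all. Outside heart 0 of 40 passed with edgeR, and 2 had an unadjusted p below 0.05. None of the 18450 probe tests there passed (0% called), with 675 at an unadjusted p below 0.05. The 95% intervals outside heart reached 2.93 log2 for Cfi, in ovary at 1 ppm, and 1.71 log2 for the other members. The latter was C7 in liver at 10 ppm, with 0.17 to 1.71 log2 (adjusted p = 0.999). Other intervals reached less far, such as -0.25 to 0.26 log2 for C3 in liver at 1 ppm. The size of difference within the error thus varied by gene and tissue. In heart 4 of 10 passed. At 1 ppm, where 1.03% of all probes differed, the difference was -5.83 log2 (-8.62 to -3.04, adjusted p = 0.0168) for Cfi and -1.07 log2 (-1.54 to -0.60, adjusted p = 0.00821) for C7. At 10 ppm, where 1.17% differed, it was -2.74 log2 (-4.19 to -1.28, adjusted p = 0.0447) for C3 and -6.58 log2 (-9.27 to -3.89, adjusted p = 0.00585) for Cfi. The heart controls of the compounds themselves differed in C3 (1.69 log2 (0.85 to 2.53, adjusted p = 0.0136)) and Cfi (4.34 log2 (2.62 to 6.06, adjusted p = 0.00238)), where 2.95% of all probes did. At 10 ppm the C3 change was -1.83 log2 with 1,4-DCB and 0.90 log2 with 1,2-DCB. The 1,4-DCB controls F1, F7 and F10 had C3 at 117.4, 109.6 and 60.3 CPM and albumin at 912, 761 and 267 CPM. Cfi was at 5.03, 3.28, 2.63 and 1.39 CPM in the controls F1, F2, F7 and F10. No control was left out here, so how far the differences rest on these libraries was not tested. The calls ended without single exposed libraries. Without the 1,2-DCB rat F201, whose C3 was 82.9 CPM with albumin at 448 CPM, the 10 ppm differences were -1.56 for C3 (adjusted p = 0.998) and -4.55 for Cfi (adjusted p = 0.862). Without the 1,2-DCB rat F101 the 1 ppm differences were -0.90 for C7 (adjusted p = 0.144) and -5.37 for Cfi (0.154).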

How the data were processed

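The authors measured RNA from 5 tissues with the TempO-Seq Rat S1500+ panel and deposited read counts per probe. Bowtie 1.3.1 is named in the submitters' processing notes, and the sources used here do not give its settings or the build of the probe reference. Per the file headers, the deposited counts are adjusted for attenuation, the dampening of abundant probes: 115 of 2654 probes hold multiples of a fixed number, 5 for C3 and 3 for C7. This makes their counts look more precise than the reads behind them. In controls these probes held a median of 95.6% of all counts in liver, 83.9% in kidney, 78.1% in lung, 65.0% in ovary and 44.3% in heart. CPM by library total is taken over counts that include them.

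The 9 libraries the submitters marked as not used were left out. Each tissue and compound was fitted with edgeR 4.0.16 (quasi-likelihood test, TMM scaling, filterByExpr) in R 4.3.3, with the 6 concentrations and the controls in 1 model. Benjamini-Hochberg adjustment ran over all probes tested, and an adjusted p below 0.05 is a call. "Fell" and "rose" mean a call. Levels are TMM-scaled CPM, except for control tissues, which are CPM by library total. Further fits tested the compound difference at 1 and 10 ppm, the liver change minus that of another tissue, and control tissues. The scripts were tested on simulated data.

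Libraries of different tissues can come from the same rat, and deviations from group means correlated over the 20 pairs of tissues (0.119 to 0.396, median 0.196). The members and lists were chosen with earlier results of these data known. Named genes are the members in every comparison, up to 4 called genes by smallest p among the other complement genes at each top concentration, and per member the 3 probes of highest r. A gene that this rule names is not reported here. Single genes named in the heart, C4b, and in liver Clu, Cd55, Mbl1 and Mbl2 were chosen after their values were seen. Alternatives were DESeq2 1.42.0 and its size factors, limma 3.58.1 voom, other filters, all libraries, single contrasts, counts divided by step, a rat block and rats left out in turn. The DESeq2 and limma voom tests, the fit with no filter and single contrasts were run only for exposed groups against their own controls. Counts divided by step were run there and for control tissues. The rat block was run only for tissue differences and control tissues. Library totals, heart without F101 and F102, and the leave-outs between tissues were added after seeing the data.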

Additional observations from a re-analysis of the deposited data

Results flagged for a closer look

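Among the groups of 4 to 10 libraries checked for 1 library far from the rest, 6 had one, which is 5.22% of the groups, and chance alone gives about 1 in 20. In 1,2-DCB liver at 100 ppm, rat F401 was high in C3, at 14014 CPM with the nearest rat at 11528, and in C1s, at 33.5 CPM with the nearest at 27.3. Rat F403 of the same group was high in Cfi, at 803 CPM with the nearest at 753. Among the 1,2-DCB liver controls, F8 had Cfi at 1177 CPM with the nearest at 927. Among the 1,4-DCB liver controls, F7 had C3 at 9193 CPM with the nearest at 12978. In 1,4-DCB ovary at 800 ppm, F604 had Cfi at 5.63 CPM with the nearest at 0.899.

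The change at the top concentration differed between liver and another tissue in 22 tests, each with the lower change in liver, in log2. With 1,2-DCB these were, for C3, -1.82 against heart, -1.45 against lung and -1.25 against ovary. For C4a they were -3.41 against heart, -2.33 against lung and -2.97 against ovary. For C1s they were -2.61 against heart, -2.22 against kidney, -2.28 against lung and -2.73 against ovary. For Cfi they were -3.67 against heart and -1.55 against ovary. For C7 they were -1.41 against heart, -1.04 against kidney, -1.08 against lung and -1.99 against ovary. With 1,4-DCB, C3 differed by -1.42 against lung and C4a by -1.12 against ovary. C7 with 1,4-DCB differed by -1.17 against heart, -0.96 against kidney, -1.19 against lung and -1.69 against ovary. With library totals C7 with 1,2-DCB was -0.40 against kidney (adjusted p = 0.318) and -0.49 against lung (0.23), and C3 against lung and ovary and Cfi against ovary no longer passed. Some of these rest on 1 rat: C3 against ovary with 1,2-DCB was -0.99 without F603 (adjusted p = 0.0854), Cfi against ovary was -1.40 without F602 (0.0724) and -1.32 without F603 (0.0923). With 1,4-DCB, C7 against kidney was -0.80 without F601 (0.121), -0.90 without F604 (0.0865) and -0.91 without F605 (0.0731), and C4a against ovary was -0.88 without F604 (0.109).

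The changes with the compounds differed in heart in 4 tests, 1,4-DCB minus 1,2-DCB in log2: Cfi at 1 ppm by -5.83, C7 at 1 ppm by -1.07, C3 at 10 ppm by -2.74 and Cfi at 10 ppm by -6.58. C7 at 1 ppm was -0.67 without the 1,2-DCB rat F102 (adjusted p = 0.191), and Cfi at 1 ppm was -5.39 without the 1,4-DCB rat F103 (0.0578). C3 at 10 ppm lay between -2.89 and -2.54 without the 1,4-DCB rat F202, F203, F204 or F205 (adjusted p from 0.0666 to 0.141), and was -2.67 with library totals (0.0594).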

How the results depend on the processing

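Of the counts of called members under alternatives other than leave-outs of single rats, 86.4% stayed within 1.5 times the main count and 20 counts did not. The fit without F101 and F102 together is among these counts. Main counts of 0 that stayed at 0 are included in the 86.4%. The cause was not tested. The 1 call in 1,2-DCB lung at 500 ppm became 0 with limma voom, with all libraries and with library totals. The 0 calls in 1,4-DCB heart at 800 ppm became 2 with DESeq2 and 1 each with a 20 CPM filter, with library totals and with the exposed group and its controls alone. The 1 call in 1,4-DCB lung at 800 ppm became 0 with all libraries and 2 with library totals, C7 being the second (-0.50 log2). The 2 calls in 1,2-DCB heart at 1 ppm became 1 with limma voom, 1 with a 20 CPM filter, which left 2 members to test, 0 with the exposed group and its controls alone, which left 4 (Cfi was in neither), and 0 without F101 and F102. In 1,2-DCB liver, the 4 calls at 250 ppm became 1 with library totals, and the 1 call at 100 ppm became 0 with no filter, with library totals and with the exposed group and its controls alone. In the other 47 comparisons below the top, DESeq2 gave 2 calls: Cfi at 10 ppm 1,2-DCB (4.23 log2) and C3 at 400 ppm 1,4-DCB (-1.85 log2), both in heart. The 4 compound differences became 1 with a 20 CPM filter, which left 36 tests, and the 6 tissue differences with 1,4-DCB became 1 with library totals. Neither the DESeq2 test nor limma voom was run for compound or tissue differences.

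With library totals the control difference reversed for C1s in heart minus liver (0.59 log2), heart minus ovary (-0.66), kidney minus lung (-0.13) and liver minus ovary (-1.25), and for C4a in liver minus lung (-1.28) and liver minus ovary (-0.48). With the rat as replicate block the counts stayed at 16 and 6 tissue differences and 46 control pairs.

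When rats were left out in turn, the counts ranged from 5 to 5 in liver at 500 ppm 1,2-DCB and at 800 ppm 1,4-DCB, 4 to 4 in liver at 250 ppm, 0 to 1 in liver at 100 ppm, 2 to 3 in kidney at 500 ppm, 1 to 3 in kidney at 800 ppm, 0 to 1 in lung at 500 ppm, 1 to 1 in lung at 800 ppm, 0 to 2 in heart at 1 ppm, 0 to 0 in heart at 500 ppm, 0 to 1 in heart at 800 ppm and 0 to 0 in ovary at either top concentration. They were 0 to 1 in the other comparisons below the top, 2 to 4 for compound differences, 14 to 16 for tissue differences with 1,2-DCB and 4 to 6 with 1,4-DCB. For compound differences, only the 97 exposed libraries at the shared concentrations were left out in turn. For tissue differences, only the 5 rats at the top concentration of each compound were. Controls were left out in neither, so how far these counts rest on single control libraries was not tested. Cfi in heart lay at 0 to 4 reads per 1,2-DCB control library, where counting error limits any fold.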
